A study of Homo sapiens with 12 samples.

Results

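The rows named for mitochondrial ribosomal proteins are described here, 77 of the 58684 rows of a count table. Members were chosen by name alone: every row called MRPL or MRPS followed by a number and, in some, a letter A, B or C. 48 rows are MRPL (large subunit names) and 29 are MRPS (small subunit names). All 77 matched a protein-coding gene by symbol in GENCODE release 44, on 21 chromosomes. The rule itself uses no measured value, but it was set with earlier results of these data known.

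The study sequenced RNA of U2OS, an established human osteosarcoma cell line, in 12 libraries that form 4 groups of 3. Vector cells carried the vector and eIF4E cells expressed EIF4E-Flag, the cap-binding translation initiation factor eIF4E with a Flag tag. Of each kind of cells there was input RNA and a Cap IP, an immunoprecipitation that, by the subject of the series, enriches RNA with the m7G cap. All 4 groups share the cell line, the removal of ribosomal RNA and the library kit. The labels mention transient transfection and stable lines without saying which gave these libraries, or whether the 3 libraries of a group came from separate cultures, so p-values measure only the spread between libraries, which may be technical. In bulk RNA, fewer cells of a type and less RNA per cell cannot be told apart.

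Mitochondrial ribosomes translate the mRNAs of mitochondrial DNA, which encode core subunits of the respiratory chain. Their ribosomal RNA is made inside the organelle, whereas every one of their proteins is encoded in the nucleus, translated on cytosolic ribosomes from capped mRNA and imported. Some of the proteins descend from bacterial ribosomal proteins and others are found only in mitochondria. A name does not always give the subunit: MRPS18A and MRPS30 sit in the large subunit.

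Which strand featureCounts was set to read is not stated in any label or header used here, although the kit marks the strand. Among 443 pairs of a coding gene and the row named as its antisense on the other strand, with at least 120 counts together, the antisense row held more counts per kilobase of exon in 308 (69.5%). Among the 177 pairs with at least 1200 counts it did so in 148. VIM, an abundant mRNA of such cells, held 15467 counts in all and VIM-AS1 held 208430, while MIF held 1832 and MIF-AS1 held 195902. If reads were counted on the strand opposite to the mRNA, every member row, also one with no annotated gene on the other strand, would hold RNA antisense to the member or a remainder of its own reads, which the table cannot tell apart. The values below are therefore values of rows, and whether they are levels of the members' mRNAs was not established.

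Promoter sequence is shown for 4 members whose rows were higher in the Cap IP of vector cells and that share a match to CCGGAAG, the letters that ETS factors such as GABP recognise. GABP is known as a regulator of nuclear genes for mitochondrial proteins. Each run has the 80 bases before the RefSeq start and the first 10 transcribed bases, read 5′ to 3′ on the gene's strand in GRCh38.p14, with matches on either strand in capitals.
MRPL48, chr11:73787794-73787883, plus strand: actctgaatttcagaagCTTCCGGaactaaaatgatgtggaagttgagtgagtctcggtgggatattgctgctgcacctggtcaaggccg
MRPL53, chr2:74472671-74472760, minus strand: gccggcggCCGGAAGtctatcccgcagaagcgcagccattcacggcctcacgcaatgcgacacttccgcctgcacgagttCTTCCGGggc
MRPS26, chr20:3045972-3046061, plus strand: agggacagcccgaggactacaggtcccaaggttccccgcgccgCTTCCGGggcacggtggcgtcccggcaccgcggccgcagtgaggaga
MRPS12, chr19:38930864-38930953, plus strand: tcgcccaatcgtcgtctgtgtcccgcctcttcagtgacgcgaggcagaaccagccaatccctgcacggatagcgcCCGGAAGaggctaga

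A RefSeq promoter, 250 bases before to 50 bases after the start, was found for 68 of the 77 members. CCGGAAG stood in 28 of the 68 on either strand (41.2%), against 10.3% of all 35116 promoters and 12.8% of the 22199 promoters of coding genes. AAGATGGCG, recognised by YY1, stood in 13 members (19.1%), against 1.7% of all promoters and 2.4% of coding ones. 4 members held both matches, and in 0 of them did the letters overlap. GCGCATGCG, recognised by NRF1, was in 3 members (4.4%), against 1.9% of all promoters and 2.4% of coding ones. The TATA box letters TATAAA were in 2 members (2.9%), against 11.5% of all and 9.5% of coding ones. A first transcribed base C followed by 4 pyrimidines, as in terminal oligopyrimidine mRNAs, was in 5 members (7.4% against 4.1%). Matches of letters are descriptions of these windows and show no binding.

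Total counts per library lay between 1206321 and 1813486, and the members took 0.135% to 0.206% of them. A count of 3 stood for 1.19 to 3.15 CPM, a count's share of a library size that TMM, edgeR's normalization, has adjusted. The members held few counts, with a median total over all 12 libraries of 275, and why was not tested. The EIF4E row held 15, 9 and 15 counts in vector input and 39, 27 and 23 in eIF4E input, without overlap, with a log2 difference of 0.98 (SE 0.36, edgeR adjusted p 0.231). Of osteoblast markers COL1A1 and SPARC were abundant, while COL1A2 held 2 counts and TWIST1 held 0, and summed blood and hepatic markers stayed at or below 1.05 CPM. Summed epithelial markers lay between 9.78 and 38.9 CPM and neuronal ones between 22.3 and 73.9 CPM. TUBB3 with 302, RBFOX3 with 291 and CDH1 with 187 counts in all stood against 177 for the osteoblast marker RUNX2. The summed rows of the mitochondrial mRNAs were lowest in Cap IP replicate 2 of vector cells, at 5560 CPM, against 12300 to 35900 CPM in the other libraries.

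61 members (40 MRPL and 21 MRPS) had enough counts to be tested, each with 97 to 3348 counts over all libraries. The other 16 held 5 to 89 counts and are given by name only. They were MRPL1, MRPL13, MRPL35, MRPL36, MRPL39, MRPL42, MRPL44, MRPL50, MRPS6, MRPS14, MRPS17, MRPS24, MRPS28, MRPS31, MRPS33 and MRPS36. Counts of members called below are counts among the 61, never among all 77.

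Levels spanned a wide range between members. MRPL51, a large subunit protein found only in mitochondria, was highest with a mean of 195 CPM over the 12 libraries, ahead of MRPL20 (77.8 CPM), MRPL34 (76.8 CPM) and MRPS7 (71.8 CPM). Per kilobase of the MANE Select transcript, the reference transcript of a gene, MRPL51 was again first with 217 CPM per kb. MRPL20 followed with 111, MRPL34 with 101 and MRPS12 with 67.9 CPM per kb. MRPL34 is the homolog of bacterial L34 and MRPS12 that of S12, which lines the decoding centre. Members' transcripts were short, with a median of 1260 bases.

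**Figure D1:**
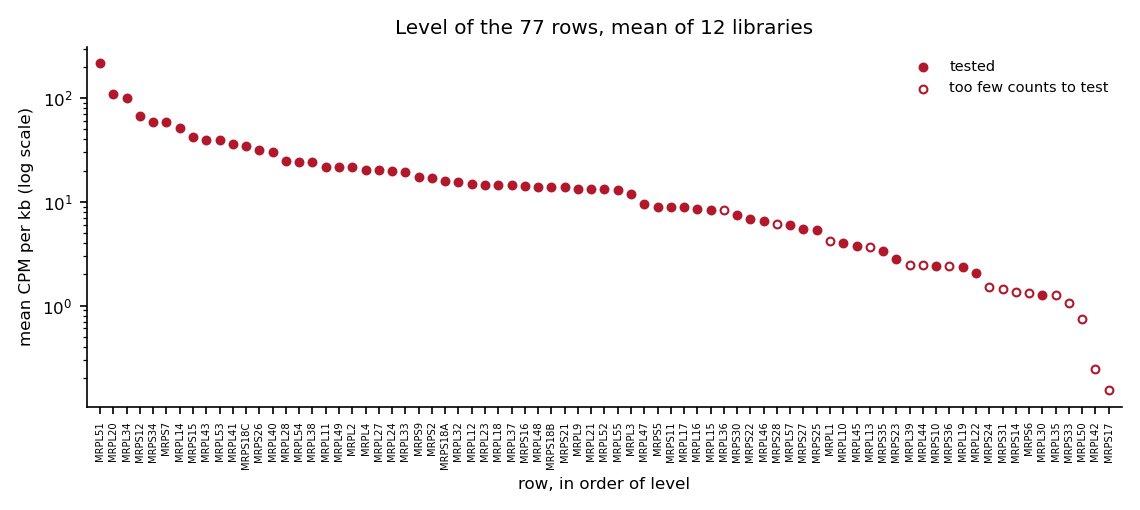
Mean CPM per kb of MANE Select transcript (log axis) for each of the 77 rows, in order of level, with filled points for the 61 tested rows and open points for the 16 with too few counts. MRPL51 stands at 217 CPM per kb, above MRPL20 at 111.

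The summed members held 1340, 1540 and 1080 CPM in vector input and 1350, 1460 and 1790 CPM in eIF4E input. In the Cap IP they held 2070, 2120 and 1770 CPM in vector cells and 1970, 2150 and 1810 CPM in eIF4E cells. Every Cap IP sum of vector cells lay above every input sum of those cells, with means of 1990 ± 185 against 1320 ± 226 CPM (SD, n = 3). The same held in eIF4E cells by a small gap, with 1980 ± 174 against 1540 ± 227 CPM (SD, n = 3). This order depends on the TMM scaling, since the members' share of total counts was 0.142% to 0.206% in input and 0.135% to 0.156% in the Cap IP.

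How the members' rows differed with eIF4E expression was read from the input libraries. Members tended to positive values in eIF4E cells, but 0 of 61 was called higher (13 of all 12460 rows tested, 0.104%) and 0 lower (0.425%), at an edgeR adjusted p under 0.05. DESeq2 also called 0. At an unadjusted p under 0.05 there were 10 members (16.4%), against 13.5% of all rows. 42 of the 61 log2 differences were positive (68.9%), against 46.6% of all rows, and the median was 0.33 against -0.05. It rested on single vector input libraries, with 0.59 without replicate 2 and 0.14 without replicate 3. Groups did not overlap for 8 members that were higher (8.45% of all rows) and for 3 that were lower (10.2%).

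The smallest p belonged to MRPS5, the homolog of bacterial S5. It held 16.2, 25.7 and 17.7 CPM in vector input and 45.9, 37.1 and 33.2 CPM in eIF4E input. All 3 eIF4E libraries were above all 3 vector libraries, and the log2 difference was 0.96 (SE 0.30, edgeR adjusted p 0.161), which did not pass. MRPL20, a homolog of bacterial L20, held 25.9, 50.2 and 31.6 CPM against 36.4, 75.8 and 126 CPM, with overlap, and a log2 difference of 1.14 (SE 0.41, edgeR adjusted p 0.216). MRPL20 alone passed when no filter on low counts was used (edgeR adjusted p 0.0272) or with the title tag as a block (edgeR adjusted p 0.0335), which did not pair the input libraries. Over all rows 137 of 33699 were higher without the filter. With the block 1.28% of all rows were higher, against 1.64% of members. MRPS2 held 24.6, 19.2 and 13.1 CPM against 24.1, 43.5 and 45.7 CPM, also with overlap (log2 difference 1.00, edgeR adjusted p 0.215). MRPL33, the homolog of bacterial L33, went the other way, from 12.9, 8.02 and 7.17 CPM to 5.93, 2.44 and 4.15 CPM (log2 difference -1.11, edgeR adjusted p 0.280). Its groups did not overlap, on 5 to 20 counts per library.

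In vector cells, Cap IP over input shows which rows were higher after the immunoprecipitation, relative to the other rows. 13 of 61 members were higher in the Cap IP (21.3%), against 18.5% of all 12460 rows, a share near the background. The other 2 calls were lower (3.28%), against 21.0% of all rows. With total counts as library sizes 0 members were higher (6.21% of all rows) and 7 lower (11.5%, against 39.7% of all rows). The median log2 change of the members was 0.56, against -0.04 over all rows, and with total counts it turned to -0.17, against -0.76. With TMM 48 of 61 were positive (78.7% against 48.4%). Of 40 MRPL rows 6 rose and 2 fell (median 0.55), and of 21 MRPS rows 7 rose and 0 fell (median 0.62). With the title stem shared by input and Cap IP as a block, which paired the libraries of vector cells, 20 members were higher (32.8%, against 23.3% of all rows with that block) and 3 lower (4.92%, against 25.5%). Without input replicate 3 of vector cells 7 of 66 members were higher (1949 of 12991 rows). Without Cap IP replicate 1 there were 0 of 66 lower (2245 of 13403 rows), and without Cap IP replicate 3 there was 1 of 65 (2550 of 13283 rows).

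MRPL48, a protein of the central protuberance of the large subunit, rose most. Its gene lies on chromosome 11 from 73787872 to 73865133. It held 15.5, 10.2 and 6.75 CPM in input and 43.8, 36.8 and 21.1 CPM in the Cap IP, without overlap. The log2 change was 1.65 (SE 0.40, edgeR adjusted p 0.00279), a 3.15-fold rise. The other 5 tested members of the central protuberance, among them MRPL18, MRPL38 and MRPL40, were positive too (0.30 to 0.69) but did not pass. In eIF4E cells 4 of the 6 were negative, with a median of -0.14 and a lowest value of -0.85, and MRPL48 alone was called.

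MRPL53, at the base of the stalk that recruits translation factors, lies on chromosome 2 from 74471982 to 74472687. It held 11.6, 14.4 and 12.2 CPM in input and 26.3, 35.7 and 48.5 CPM in the Cap IP. All Cap IP values were above all input values, with a log2 change of 1.53 (SE 0.39, edgeR adjusted p 0.00387). Of its 685 exon bases 544 (79.4%) lie opposite a gene that matched no row, and 499 are also exons of CCDC142 on the same strand, so part of its reads cannot be assigned to 1 gene. Of the 5 stalk members, MRPL53 and MRPL54 rose, MRPL11 had 0.75 (edgeR adjusted p 0.0554), MRPL12 had 0.71 and MRPL10 had -0.17. In eIF4E cells 0 of the 5 were called, with a median of 0.03 and values from -1.35 to 0.74.

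MRPS26, a small subunit protein found only in mitochondria, lies on chromosome 20 from 3046052 to 3048250 and has no exon opposite another annotated gene. It held 16.2, 25.1 and 10.5 CPM in input and 50.6, 51.5 and 42.1 CPM in the Cap IP, without overlap. Its log2 change was 1.48 (SE 0.34, edgeR adjusted p 0.00187). MRPS12, on chromosome 19 from 38930944 to 38933168, held 26.5, 42.2 and 23.6 CPM in input and 75.8, 111 and 59.4 CPM in the Cap IP. These did not overlap either, and the log2 change was 1.41 (SE 0.32, edgeR adjusted p 0.00194). MRPL34, on chromosome 19 from 17292609 to 17306843, was among the 4 members with the highest levels. Its input values of 58.2, 54.5 and 57.8 CPM stood against 126, 116 and 130 CPM in the Cap IP, with a log2 change of 1.12 (SE 0.27, edgeR adjusted p 0.00270). Over 223 exon bases MRPL34 faces ABHD8 on the opposite strand, which averaged 13.3 counts per library against 108. MRPL48, MRPL53, MRPS26, MRPS12 and MRPL34 were called in all 6 fits that left out 1 library of the groups compared. All 5 lost their call with total counts as library sizes, with edgeR adjusted p between 0.0658 and 0.259.

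The other 8 calls were each lost in at least 1 of those 6 fits. They were MRPL47 (log2 change 1.34), MRPS18C (1.31), MRPL54 (1.11), MRPL2 (1.09), MRPS21 (1.02), MRPS7 (1.00), MRPS11 (0.81) and MRPS34 (0.75). MRPL2 and MRPS7 are homologs of bacterial L2, which neighbours the peptidyl transferase centre, and of S7 in the head of the small subunit. MRPL47 was the 1 of 6 tested proteins of the polypeptide tunnel exit to pass, and the median of those 6 was 0.20. In eIF4E cells it was again the 1 called of 6, and 5 were negative (median -0.24).

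MRPL49, found only in mitochondria, fell with TMM, but its value was 0.40 with the 13 mitochondrial mRNAs as library sizes (edgeR adjusted p 0.717). That value lay below the median of all rows with this scaling, 0.97. Its gene lies on chromosome 11 from 65122183 to 65127371. MRPL49 shares 356 exon bases with the row SYVN1 on the opposite strand, which averaged 148 counts per library against 75. SYVN1 was not called in vector cells (log2 change 0.80, edgeR adjusted p 0.127) and rose in eIF4E cells (1.02, edgeR adjusted p 0.0451). MRPL49 held 58.2, 57.7 and 47.6 CPM in input and 26.3, 35.7 and 23.6 CPM in the Cap IP, without overlap (log2 change -0.94, SE 0.30, edgeR adjusted p 0.0157). The call was lost without Cap IP replicate 1 or 3 of vector cells, with edgeR adjusted p up to 0.062. MRPL16, the homolog of bacterial L16, fell as well, from 14.9, 10.7 and 13.5 CPM to 2.92, 3.15 and 6.38 CPM (log2 change -1.55, edgeR adjusted p 0.0135). MRPL16 was named after its values were seen, since its mean of 15.8 counts is under the minimum for named members, and it was lost without Cap IP replicate 1 or 2.

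**Figure D2:**
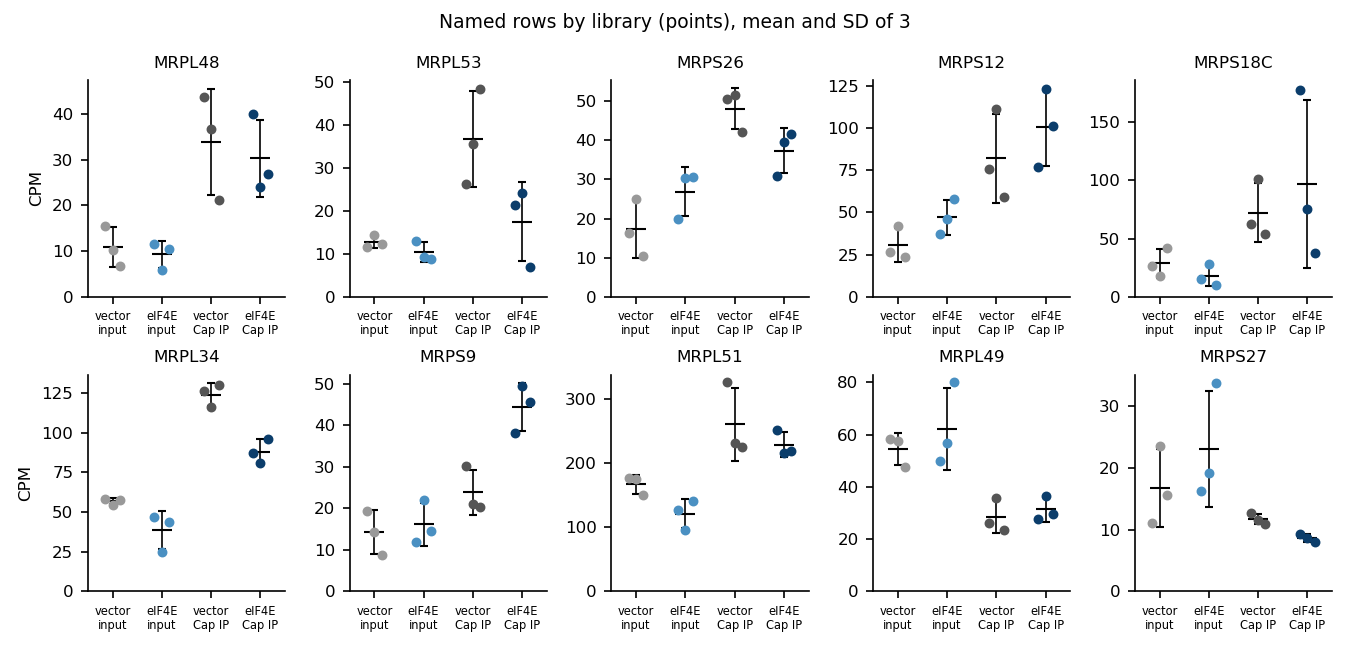
CPM of 10 rows (vertical axis from 0) in each of the 12 libraries, as points by group, with the mean and SD of 3 libraries. MRPL34 in vector cells lies between 54.5 and 58.2 CPM in input and between 116 and 130 CPM in the Cap IP, while MRPL49, with TMM scaling, is lower in both Cap IP groups.

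In eIF4E cells, 10 of 61 members were higher in the Cap IP (16.4%), against 21.9% of all rows, and 2 were lower (3.28%), against 23.3%. Total counts as library sizes gave 1 higher (1.64%, against 8.99% of all rows) and 25 lower (41%, against 46.6%). The 13 mitochondrial mRNAs gave 1 higher (1.64%, against 6.79%) and 0 lower (5.67% of all rows). The median log2 change was 0.04, against -0.13 over all rows, and with total counts it turned to -0.80, against -0.97. With TMM 33 of 61 were positive (54.1% against 46.2%). That median reached 0.19 without input replicate 3 and 0.16 without Cap IP replicate 1 or 3. Of 40 MRPL rows 6 rose and 1 fell, and of 21 MRPS rows 4 rose and 1 fell. 15 members had an unadjusted p under 0.05 (24.6%), against 52.4% of all rows. Without each library in turn 7 to 12 of 64 to 67 members were higher, beside 2281 to 2645 of 13094 to 13412 rows. Without input replicate 1 of eIF4E cells 4 of 64 were lower (2660 of 13094 rows), and without input replicate 3 it was 1 of 64 (2705 of 13303 rows).

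MRPS18C, the small subunit homolog of bacterial S18, had the largest change. It held 15.4, 27.9 and 10.4 CPM in input and 178, 75.3 and 37.7 CPM in the Cap IP. The groups did not overlap, although Cap IP values differed several-fold among themselves, and the log2 change was 2.43 (SE 0.48, edgeR adjusted p 0.000463). MRPS9, a homolog of bacterial S9, held 11.9, 22.0 and 14.5 CPM in input and 38, 49.3 and 45.6 CPM in the Cap IP (log2 change 1.46, SE 0.35, edgeR adjusted p 0.00207). Both rows share exon bases with a far more abundant row of the opposite strand, described further on.

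MRPL48 rose again, from 11.5, 5.87 and 10.4 CPM to 40.0, 24.1 and 26.8 CPM (log2 change 1.70, SE 0.40, edgeR adjusted p 0.00204). MRPL34 rose from 47.0, 24.9 and 43.6 CPM to 87.2, 81.1 and 96.2 CPM (log2 change 1.19, SE 0.27, edgeR adjusted p 0.00168). Neither overlapped, and both were called in all 6 fits without 1 library. MRPS12 rose from 37.2, 45.9 and 58.1 CPM to 77, 123 and 101 CPM (log2 change 1.09, edgeR adjusted p 0.00805), and lost its call narrowly without Cap IP replicate 2 (edgeR adjusted p 0.0523). MRPL51, the member with the highest level, rose from 127, 96.3 and 141 CPM to 252, 216 and 220 CPM (log2 change 0.92, edgeR adjusted p 0.00736). Its call was lost without input replicate 2 of eIF4E cells (edgeR adjusted p 0.0519). MRPL51 shares 383 exon bases with NCAPD2, a row of the opposite strand that averaged 645 counts per library, against 279 for MRPL51. Per kilobase of exon MRPL51 held more, with 201 against 99.7 counts. NCAPD2 rose in vector cells (log2 change 1.07, edgeR adjusted p 0.00549) and in eIF4E cells (0.76, edgeR adjusted p 0.0344).

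The other rows that rose were MRPL19 (log2 change 2.12), MRPL47 (1.90), MRPL33 (1.44) and MRPS7 (0.86). MRPL19 rested on Cap IP replicate 1, where it held 58.5 CPM against 20.3 and 6.94 CPM in the other two. Without that library its edgeR adjusted p was 0.18, and MRPL33 lost its call without it or without input replicate 2 (edgeR adjusted p up to 0.0909). MRPS7 lost its call without input replicate 2 or Cap IP replicate 2.

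MRPS27, a small subunit protein of the pentatricopeptide repeat family, fell in eIF4E cells. It held 16.2, 19.1 and 33.7 CPM in input and 9.24, 8.69 and 7.93 CPM in the Cap IP, without overlap (log2 change -1.40, SE 0.41, edgeR adjusted p 0.00873). Without input replicate 3 of eIF4E cells its edgeR adjusted p was 0.0516. MRPL49 fell from 49.8, 56.7 and 80 CPM to 27.7, 36.7 and 29.7 CPM (log2 change -0.98, SE 0.29, edgeR adjusted p 0.0104), close to its change in vector cells.

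Set side by side, 6 members rose in the Cap IP of both kinds of cells: MRPL34, MRPL47, MRPL48, MRPS7, MRPS12 and MRPS18C. They are 46.2% of the members that rose in vector cells and 60% of those that rose in eIF4E cells. Over all rows the shared calls are 82.8% and 70.1% of the corresponding lists. MRPL49 was the 1 member to fall in both, and 0 members were called in opposite directions. The sign of the change was the same in 40 of 61 members (65.6%), against 84.5% of all rows. Among members of 1 sign in vector cells and the other in eIF4E cells were MRPS21 (1.02 and -0.31), MRPL54 (1.11 and -0.30) and MRPL18 (0.69 and -0.71).

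**Figure D3:**
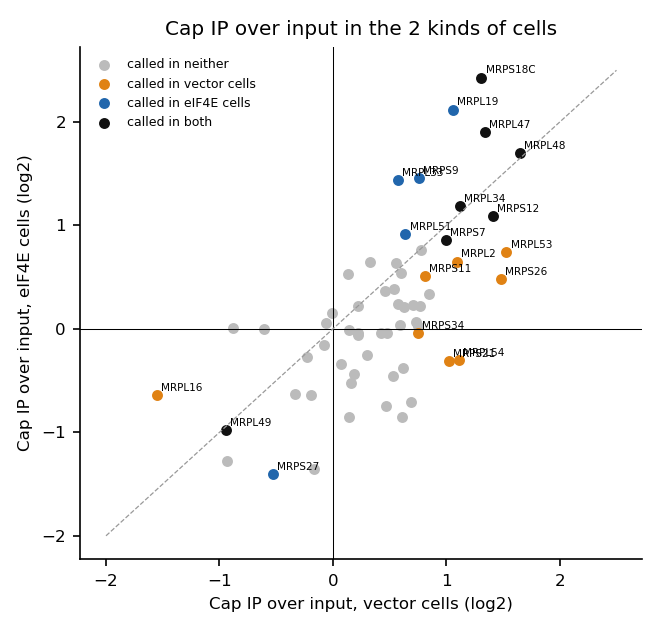
Log2 change of Cap IP over input in vector cells (horizontal axis) and in eIF4E cells (vertical axis) for the 61 tested rows, coloured by where they were called; the dashed line marks equal change. 6 rows that rose in both and MRPL49, which fell in both, are black.

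Whether Cap IP over input differed between eIF4E and vector cells was tested as the difference of both changes. 0 of 61 members passed, as did 0 of all 12460 rows (0%), with edgeR, and DESeq2 also called 0 members. 5 members had an unadjusted p under 0.05 (8.2%), against 5.84% of all rows. 16 of 61 differences were positive (26.2%), against 51.3% of all rows, the other 45 being lower in eIF4E cells, and the median was -0.32 against 0.02 over all rows. It was -0.51 without vector input replicate 2, -0.10 without replicate 3 of that group, -0.13 without eIF4E input replicate 3 and -0.19 without vector Cap IP replicate 1. The smallest p belonged to MRPL54 (-1.41, SE 0.56), MRPS21 (-1.33, SE 0.55), MRPL18 (-1.39, SE 0.58) and MRPS5 (-1.0, SE 0.44), each with an edgeR adjusted p of 0.833. None of them can be called changed. This difference uses the same input libraries as the comparison of eIF4E with vector input, in which the median was 0.33, so these medians are not separate evidence.

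Per title stem, the median log2 ratio of Cap IP to input over the 61 members, with 2 CPM added, was 0.47, 0.32 and 0.62 in vector cells. In eIF4E cells it was 0.15, 0.27 and -0.13. The 3 values of vector cells lay above the 3 of eIF4E cells, by a small gap, the closest being 0.32 and 0.27. Over all rows the stem medians ranged from -0.11 to -0.05 for vector cells. For eIF4E cells that range was -0.13 to -0.09. Stems of eIF4E cells were not taken as paired, and the order of these values was not tested.

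Between Cap IP libraries, eIF4E against vector, 0 of 61 members was called higher (0.0803% of all rows) or lower (0.144%) by edgeR, and 0 by DESeq2. 4 had an unadjusted p under 0.05 (6.56%), against 9.20% of all rows, and the median difference was -0.06 against -0.01. 27 of 61 were positive (44.3% against 48.8%), and the groups did not overlap for 1 member that was higher (6.16% of all rows) and 5 that were lower (7.39%). Without 1 library it lay between -0.15 and 0.08, so its sign is not settled. MRPL20 held 42.8, 78.8 and 63.8 CPM in vector cells and 72.9, 166 and 164 CPM in eIF4E cells, with overlap (log2 difference 1.12, SE 0.41, edgeR adjusted p 0.379). MRPL53 held 26.3, 35.7 and 48.5 CPM against 21.5, 24.1 and 6.94 CPM, without overlap (log2 difference -1.08, SE 0.40, edgeR adjusted p 0.388). MRPS9 (0.90) and MRPL14 (-0.69) were next, at edgeR adjusted p of 0.434 and 0.483. No difference of a member between eIF4E and vector Cap IP was thus larger than the spread between libraries allows to call.

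**Figure D4:**
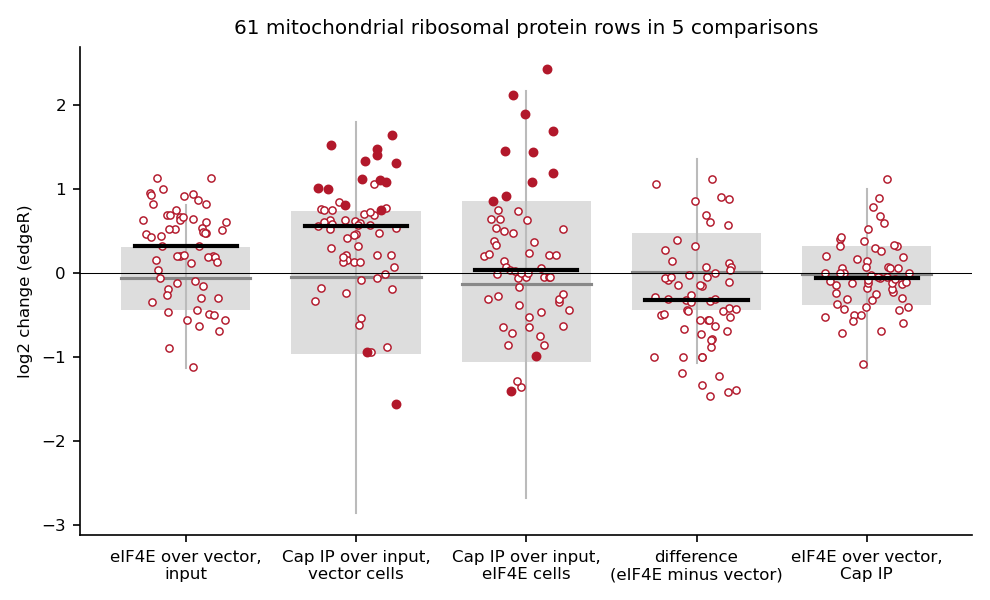
Log2 change or difference (vertical axis) of the 61 tested rows in 5 comparisons: filled points passed an edgeR adjusted p under 0.05, open points did not, black bars are the members' medians, and grey boxes, bars and lines are the quartiles, the median and the 5% to 95% range of all 12460 rows. The members' medians are 0.33, 0.56, 0.04, -0.32 and -0.06 from left to right.

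Split by origin, 8 of 37 members with a bacterial homolog rose in the Cap IP of vector cells and 1 fell (median 0.57), and 5 of 24 found only in mitochondria rose and 1 fell (median 0.44). In eIF4E cells 8 of 37 rose and 0 fell (median 0.07), against 2 of 24 that rose and 2 that fell (median -0.01). The shares over all rows were 18.5% higher and 21.0% lower for vector cells, against 21.9% higher and 23.3% lower for eIF4E cells. The difference between these lists was not tested. MRPS18A, MRPS18B and MRPS18C, the 1 set of paralogs among the members, differed in their calls. MRPS18C rose in both kinds of cells, whereas MRPS18A had 0.22 and -0.06 (edgeR adjusted p 0.656 and 0.912) and MRPS18B had -0.33 and -0.63 (edgeR adjusted p 0.530 and 0.183).

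Change in the Cap IP went with transcript length in vector cells. The 21 tested members under 1000 bases had a median log2 change of 0.63, the 27 of 1000 to 2000 bases 0.42, and the 13 over 2000 bases -0.08. Across the 61 members Pearson's r of change with log length was -0.36 and Spearman's rho -0.39, and across the 9185 rows with such a length they were -0.37 and -0.40. In eIF4E cells the values were -0.04 and -0.13 for members and -0.27 and -0.28 for all those rows. Genes share libraries and are not independent replicates, so no p is given.

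Overlapping genes bear on several of these rows in particular. 30 members have exon bases opposite to exons of another gene, and 23 of them face a row of the same table, in 26 pairs. In 10 pairs the opposite row held more counts per kilobase of exon than the member. Which strand's RNA such a row holds cannot be told from the table. Among the 34 tested members with no opposite exon base, 5 rose (14.7%, against 18.5% of all rows) and 1 fell (2.94%, against 21.0%) in vector cells. In the Cap IP of eIF4E cells 3 rose (8.82%, against 21.9%) and 0 fell (23.3% of all rows). The medians were 0.57 and -0.01. Of the 27 tested members with opposite exon bases 8 rose (29.6%) and 1 fell in vector cells (median 0.53). In eIF4E cells 7 of these 27 rose (25.9%) and 2 fell (median 0.15). This split was not tested.

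The row RSPH9, named for a radial spoke protein of cilia, shares 705 exon bases with MRPS18A on the other strand. It averaged 1040 counts per library, against 28.2 for MRPS18A. RSPH9 held 460, 363 and 309 CPM in vector input and 1400, 1540 and 973 CPM in vector Cap IP (log2 change 1.79, SE 0.30, edgeR adjusted p 0.000132). In eIF4E cells it held 268, 341 and 432 CPM in input and 1270, 1450 and 1030 CPM in the Cap IP (1.85, SE 0.30, edgeR adjusted p 6.67e-05). Both changes were without overlap, on a row whose opposite partner, MRPS18A, was called in neither.

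UTAT33 faces MRPS9 over 372 exon bases and averaged 389 counts, against 33.2 for MRPS9. It rose from 154, 116 and 95.3 CPM to 410, 607 and 366 CPM in vector cells (log2 change 1.92, edgeR adjusted p 0.00018). In eIF4E cells it rose from 119, 119 and 49.8 CPM to 597, 636 and 528 CPM (2.61, edgeR adjusted p 9.16e-06). OAZ3, named for an antizyme known from testis, faces MRPL9 and averaged 445 counts against 25.4, with changes of 2.08 and 2.24 (edgeR adjusted p 5.38e-05 and 1.82e-05). MRPL9 itself had -0.01 and 0.15 and was not called.

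FAM175A faces MRPS18C over 1956 exon bases, with 608 against 68.6 counts per library. It rose by 3.0 in vector cells and 3.74 in eIF4E cells (edgeR adjusted p 4.05e-05 and 5.26e-06), from 55.7 to 134 CPM over the 6 input libraries to 351 to 1470 CPM over the 6 Cap IP libraries. Its Cap IP values were 1070, 1140 and 351 CPM in vector cells and 1470, 1330 and 623 CPM in eIF4E cells. Of the 20 opposite rows tested, 7 rose and 1 fell in vector cells (18.5% and 21.0% of all rows). In eIF4E cells 9 rose and 1 fell (21.9% and 23.3% of all rows). Of the 10 that exceeded their member per kilobase, 6 rose and 1 fell in vector cells, and 7 rose and 1 fell in eIF4E cells, beside the same shares. Whether their reads come from the member's strand was not tested.

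**Figure D5:**
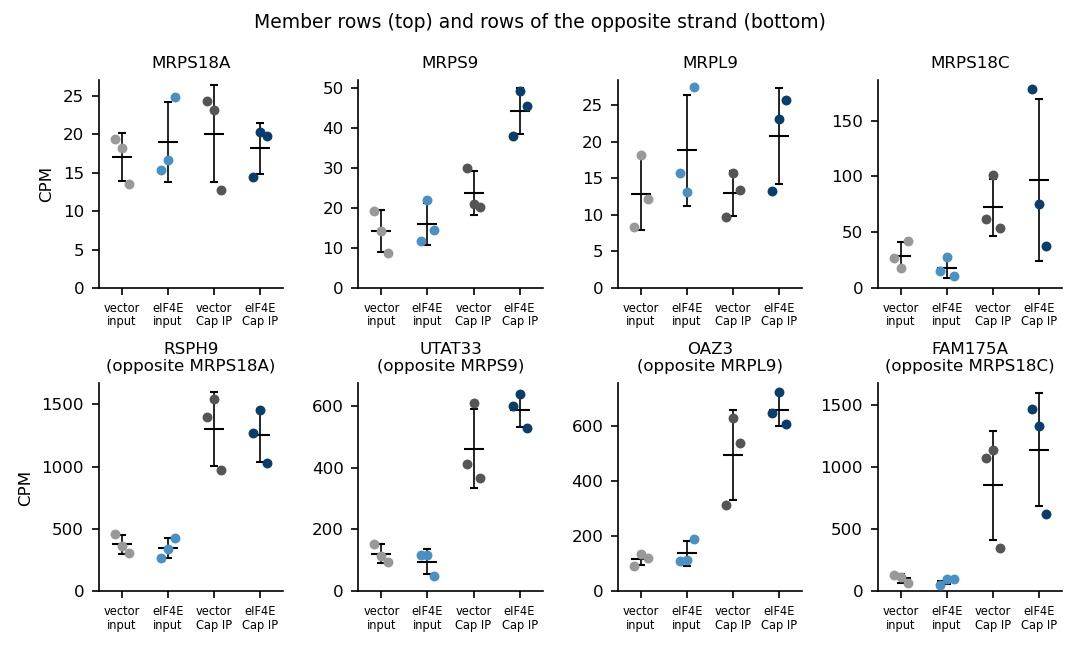
CPM (vertical axes from 0, scales differ between panels) by library for MRPS18A, MRPS9, MRPL9 and MRPS18C, top, and the opposite rows RSPH9, UTAT33, OAZ3 and FAM175A, bottom, as points with the mean and SD of 3 libraries. RSPH9 lies between 268 and 460 CPM in input and between 973 and 1540 CPM in the Cap IP.

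Of 6 mitoribosomal proteins with other names 2 were higher and 1 lower in the Cap IP of vector cells (18.5% and 21.0% of all rows), and 1 was higher and 0 lower in eIF4E cells (21.9% and 23.3%). GADD45GIP1 rose (log2 change 0.88, edgeR adjusted p 0.0334), as did DAP3 (0.83, edgeR adjusted p 0.0409), and PTCD3 fell (-1.72, edgeR adjusted p 0.00652). Of 17 tested assembly factors of the mitoribosome 2 rose and 3 fell, among them the helicase DHX30 (-1.50, edgeR adjusted p 0.000763) and the methyltransferase NSUN4 (2.00, edgeR adjusted p 0.00151). In eIF4E cells 2 assembly factors rose and 5 fell. Cytosolic ribosomal proteins, with 73 rows tested, had 27 higher and 0 lower in vector cells (median 0.64) and 6 higher and 0 lower in eIF4E cells (median 0.25). Nuclear-encoded respiratory chain subunits, with 64 tested, had 20 higher and 1 lower (median 0.65), then 7 higher and 5 lower (median 0.23). The difference of both changes was positive in 6 of 73 cytosolic rows (median -0.45) and 15 of 64 respiratory chain rows (median -0.38). Between eIF4E and vector input, 56 of 73 and 48 of 64 were positive, with a median of 0.20 in each list. The members' shifts in those comparisons were therefore not particular to them. No difference between the members and these lists was tested.

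Library scaling sets the zero of Cap IP over input. Of all rows called in vector cells 46.9% were higher with TMM, 13.5% with total counts and 84% with the 13 mitochondrial mRNAs as library sizes, and in eIF4E cells 48.5%, 16.2% and 54.5%. The median of all rows moved to -0.76 and 0.97 for vector cells, and to -0.97 and 0.03 for eIF4E cells. The members' median minus that of all rows, 0.61 and 0.17 with TMM, became 0.59 and 0.73 for vector cells, and 0.17 and 0.25 for eIF4E cells, under those scalings. Changes of members are therefore relative to the other rows.

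Matches to CCGGAAG were also counted among the members that rose, a count chosen after their values were seen. In vector cells 9 of the 12 risen members with a promoter held one, in eIF4E cells 6 of 10, and among tested members 26 of 56. No test was made.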

How the data were processed

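Of the 12 U2OS libraries, the authors deposited raw counts of reads, 1 row per gene name. Per the submitters' processing notes, STAR 2.5.1b, featureCounts 1.4.5-p1, DESeq2 and build GRCh38.p5 were used. The labels give the KAPA RNA HyperPrep kit with RiboErase and single-end reads of 75 cycles. The gene annotation and the strand setting were not given in the sources used here. Coding rows were therefore compared with the rows named as their antisense on the opposite strand, by counts per kilobase of exon, a check added after the data were seen.

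Groups come from the source names. In R 4.3.3, edgeR 4.0.16 (limma 3.58.1) kept 12460 rows with filterByExpr, scaled them with TMM and fitted a quasi-likelihood model with 4 group means over all 12 libraries. Calls need a Benjamini-Hochberg adjusted p under 0.05 over all tested rows. DESeq2 1.42.0, other scalings and filters, fewer samples, a replicate block and leaving out each library were alternatives. The fit was tested on simulated data. Figures and annotation used Python 3.11.15, pandas 2.3.3 and matplotlib 3.10.9.

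Positions and exon overlaps come from GENCODE 44, and promoters from RefSeq GRCh38.p14. Of all rows, 33749 matched GENCODE by symbol, 1687 by an older symbol and 23248 not at all. Neither is stated to be the annotation the authors used.

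Input and Cap IP titles share a stem, and vector and eIF4E titles share a tag. Residuals of a stem's libraries correlated at 0.45, 0.28 and 0.45 in vector cells, which were taken as paired, and at 0.37, 0.09 and 0.12 in eIF4E cells, which were not. Tags gave 0.22, 0.17 and 0.33 in the Cap IP and 0.18, 0.01 and -0.04 in input.

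The members, lists and tests were chosen with earlier results of these data known. Named members were, for Cap IP over input, up to 6 per direction with the largest change among those called, without overlap and with at least 20 counts on average. For the other comparisons they were those called or the 4 with the smallest p. Added were the 4 most abundant, the paralogs, the untested, opposite rows and up to 3 genes with the smallest p of each list. Members named for other reasons, such as the remaining calls, were chosen after their values were seen.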

Additional observations from a re-analysis of the deposited data

How the results depend on the processing

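In the comparison of eIF4E with vector input, 1 of 77 members, MRPL20, was called higher with no filter on low counts (137 of 33699 rows). Its log2 difference was 1.22. Again 1, the same, was called with the tag as replicate block (1.07), although tags did not pair the input libraries. That was 1.64% of members, against 1.28% of all rows. The members' median in this comparison lay between 0.14 and 0.59 when 1 replicate was left out.

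For Cap IP over input in vector cells, total counts as library sizes gave 0 members higher (6.21% of all rows). They gave 7 lower (11.5%, against 39.7%) and a median of -0.17, against -0.76 over all rows. The 13 mitochondrial mRNAs gave 18 higher (29.5%, against 23.3%), 0 lower (4.43% of all rows) and a median of 1.70, against 0.97 over all rows. A filter of 50 counts in 3 libraries left 7 of 21 members higher (1408 of 5491 rows), and the replicate block gave 20 higher (32.8%, against 23.3% of all rows). Members without opposite exons gave 5 higher (14.7%, against 18.5%) and 1 lower (2.94%, against 21.0%). Leaving out 1 replicate gave 7 to 12 of 64 to 67 members higher and 0 to 2 lower. Beside these, 1882 to 2137 of 12991 to 13428 rows were higher and 2110 to 2550 lower. MRPL49 changed sign with the mitochondrial mRNAs (0.40), MRPS18B likewise (0.97), and MRPS18A with total counts (-0.53).

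In eIF4E cells, total counts gave 1 higher (8.99% of all rows), 25 lower (41%, against 46.6%) and a median of -0.80, against -0.97. The mitochondrial mRNAs gave 1 higher (6.79% of all rows), 0 lower (5.67%) and a median of 0.29, against 0.03. The filter of 50 counts gave 5 of 21 members higher (1652 of 5491 rows), and no filter gave 4 of 77 lower (3607 of 33699 rows). A fit of only the groups compared gave 5 of 59 lower (2872 of 10475 rows). The replicate block, whose stems did not pair these libraries, gave 5 lower (8.2%, against 27.6% of all rows). Members without opposite exons gave 3 higher (8.82%, against 21.9% of all rows) and 0 lower (23.3% of all rows). Leaving out 1 replicate gave 7 to 12 of 64 to 67 members higher and 1 to 4 lower. Beside these, 2281 to 2645 of 13094 to 13412 rows were higher and 2279 to 2705 lower. MRPS18A was positive with the mitochondrial mRNAs (0.21), and, between -0.20 and 0.18 with 1 replicate left out, without Cap IP replicate 1 (0.08) or input replicate 3.

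With the mitochondrial mRNAs the median of the difference was -1.21, against -0.87 over all rows. That of eIF4E against vector Cap IP was -0.74, against -0.63 over all rows. The block changed no call of a member in these comparisons. The cause of each shift was not tested, except that fewer rows or members entered under the stricter filter and the restriction to members without opposite exons. Counts were low in many members: 44 of 77 averaged at least 20 counts per library, and the others fewer.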

Other observations

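Rows of other genes of mitochondrial gene expression, none of them a ribosomal protein, are under the same doubt about the counted strand. Among those named here, GFM2, SLIRP and VARS2 changed more in the Cap IP than any tested member in the same direction and cells. MRRF and POLRMT did not. GFM2, a mitochondrial elongation factor homolog that acts in ribosome recycling, rose by 2.42 on the log2 scale in vector cells (SE 0.30, edgeR adjusted p 8.07e-06) and by 2.71 in eIF4E cells (SE 0.30, edgeR adjusted p 2.31e-06). SLIRP, which stabilises mitochondrial mRNAs, rose by 1.75 and 2.69 (edgeR adjusted p 0.000338 and 6.87e-06). MRRF, the ribosome recycling factor, rose by 1.46 and 1.62 (edgeR adjusted p 0.00126 and 0.000245). VARS2, the mitochondrial valyl-tRNA synthetase, had -1.65 and -3.38 (edgeR adjusted p 0.00379 and 3.33e-05), and POLRMT, the RNA polymerase of mitochondria, had -0.97 and -1.27 (edgeR adjusted p 0.0263 and 0.00383). Of 13 tested mitochondrial tRNA synthetases, 3 rose and 3 fell in vector cells, and 3 rose and 4 fell in eIF4E cells. Of 12 translation factors 3 rose and 1 fell, then 4 rose and 1 fell. Of 12 factors of mitochondrial transcription and RNA stability 2 rose and 2 fell, then 3 rose and 4 fell. The shares over all rows were 18.5% higher and 21.0% lower for vector cells, against 21.9% higher and 23.3% lower for eIF4E cells. No member of these lists was called between eIF4E and vector cells.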
